A study of Mus musculus with 6 samples.

Results

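The C-type lectin receptors of macrophages are surface proteins that bind sugars and lipids of microbes and of damaged cells. Here 10 of their genes were followed, taken by symbol from the 34745 genes of the count table: Clec4a1, Clec4a2, Clec4a3, Clec4d, Clec4e, Clec4n, Clec5a, Clec7a, Clec12a and Mrc1. All 10 were found and all 10 passed the filter on low counts. RNA was sequenced from wild-type mouse bone marrow-derived macrophages, primary cells grown from marrow with recombinant M-CSF (20 ng/ml), in 3 libraries pretreated with an inhibitor of the lysine acetyltransferase KAT8 and 3 pretreated with the solvent DMSO. All 6 cultures then received R848 (100 ng/ml), a small-molecule agonist of TLR7, for 6 h, so every difference below is one between stimulated cells. The labels give neither the compound's name nor its dose nor the pretreatment time, and nothing in them ties replicates to different mice or dishes. The p-values below therefore rest on library-to-library spread, which may be technical.

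Activating receptors of this family carry no complete signalling motif of their own and pair with the adaptor chains FcRγ (Fcer1g) or DAP12 (Tyrobp), or, like Dectin-1, hold a short tyrosine motif in their tail. Ligand binding recruits the kinase SYK, and a complex of CARD9, BCL10 and MALT1 then activates NF-κB. Inhibitory members such as DCIR and CLEC12A instead carry a motif that recruits the phosphatases SHP-1 and SHP-2. The mannose receptor (Mrc1) is an endocytic receptor without such a motif. Mincle (Clec4e) is well known as a gene that Toll-like receptor stimulation induces in macrophages.

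With the inhibitor, mRNA of the Mincle gene Clec4e and of its neighbour and partner Clec4d was 2.44-fold and 2.50-fold lower, and the myeloid inhibitory receptor gene Clec12a was 2.16-fold lower. Mrc1, Clec5a and Clec4a1 fell less, and Clec4n, which encodes Dectin-2, rose 1.85-fold. The Dectin-1 gene Clec7a was nearly level between the groups. In all, 8 of the 10 genes were lower, 1 was higher and Clec4a2 did not pass, at an adjusted p under 0.05 (quasi-likelihood test of edgeR, Benjamini-Hochberg adjustment over all 13815 tested genes). By the same rule 51.5% of all tested genes differed between the groups, 26.5% lower and 24.9% higher with the inhibitor. The median log2 fold change (inhibitor over DMSO) was −0.70 over the 10 genes and 0.01 over all tested genes. Of the 8 falls, those of Clec4d, Clec4e and Clec12a were at least 2-fold, as were those of 6.86% of all tested genes, while no receptor gene was at least 2-fold higher, as 3.14% of all tested genes were. For 8 genes the sign and the call were the same under every alternative setting, and the exceptions, Clec4a3 and Clec7a, are given with their values.

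**Figure D1:**
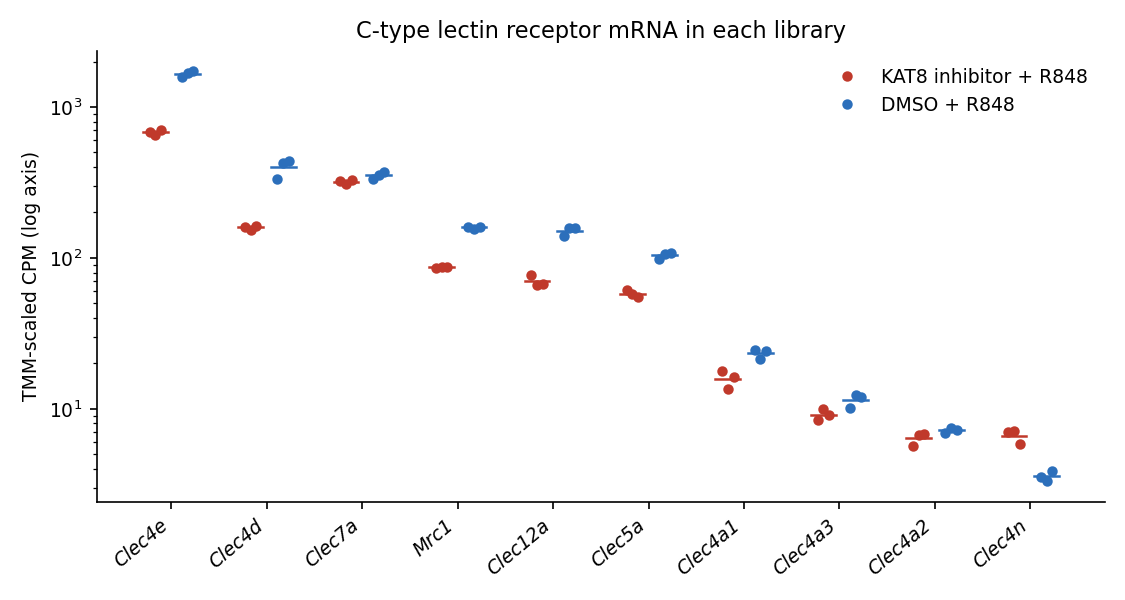
mRNA level of the 10 receptor genes in each library, in TMM-scaled CPM on a log axis, ordered by level in DMSO libraries. Each point is a library and each bar the mean of 3, with KAT8-inhibitor libraries in red and DMSO libraries in blue. The groups did not overlap for any of the 10 genes, and they also did not overlap for 60.6% of all tested genes. Clec4n was the gene with its inhibitor values on top.

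Library totals were 23037820 to 25089320 counts with the inhibitor and 18441352 to 24429778 with DMSO. Levels are CPM, a gene's count relative to its library total after TMM scaling (a trimmed mean that aligns most genes), unless stated. Kat8 itself was at 21.1, 20.8 and 20.4 CPM with the inhibitor, against 15.5, 16.9 and 15.8 CPM with DMSO, but its exons overlap a gene of the opposite strand and its mRNA level is no measure of inhibition of the protein. The macrophage label was checked against 8 marker genes, all of which passed the filter on low counts. Lyz2, the lysozyme gene, was highest at 4190 ± 37.1 CPM with the inhibitor and 8596 ± 632 CPM with DMSO (SD, n = 3). Fcgr1 was lowest, at only 1.76 CPM with the inhibitor and 3.46 CPM with DMSO. Of the 5024 exon bases of Itgam, 3450 overlap another gene of the same strand. In these bulk samples fewer cells of a type and less RNA per cell cannot be told apart. Of the 8 macrophage markers 6 were lower with the inhibitor and none higher, beside 26.5% and 24.9% of all tested genes. Their summed level ranged from 7562 to 7640 CPM with the inhibitor and from 11860 to 13530 CPM with DMSO. This sum and its difference came mainly from Lyz2. The 2 markers not called were Csf1r and Cd68. Csf1r, whose exons overlap a gene of the opposite strand, was at 462.8 CPM with the inhibitor and 473.6 CPM with DMSO. Cd68 was at 1673 CPM with the inhibitor and 1504 CPM with DMSO. Of 10 stromal markers 8 were lower, with summed levels of 2817 to 3021 CPM with the inhibitor and 6125 to 6999 CPM with DMSO, and the most abundant of them were Sparc (816.9 CPM with the inhibitor and 1612 CPM with DMSO) and Col1a2 (669.0 CPM with the inhibitor and 1701 CPM with DMSO). Of 5 endothelial markers 3 were tested, of which 2 were lower. Summed levels of the 5 were 13.1 to 13.7 CPM with the inhibitor and 55.7 to 57.1 CPM with DMSO, mostly from Vwf. The part of these differences in the receptor results was not tested.

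Neutrophils and dendritic cells also carry several of these receptors. Of 10 neutrophil markers 5, among them Ly6g, S100a9 and Elane, were at 0 in all libraries, and the summed level of the list was 2.16 to 3.47 CPM with the inhibitor and 6.41 to 7.29 CPM with DMSO, mostly from S100a8. Of 10 dendritic cell markers 6 were tested, of which 2 were higher and 4 lower, beside 24.9% and 26.5% of all tested genes. The summed level of the list was 561.9 to 585.5 CPM with the inhibitor and 867.1 to 947.3 CPM with DMSO. This sum came mainly from Itgax, an integrin gene that macrophages share. Zbtb46, a transcription factor gene of conventional dendritic cells, was at 9.65 ± 0.471 CPM with the inhibitor and 16.8 ± 1.07 CPM with DMSO (SD, n = 3). Dpp4 was at 4.78 CPM with the inhibitor and 9.99 CPM with DMSO, and Ccr7 at 1.32 CPM with the inhibitor and 2.55 CPM with DMSO. Cd24a was at 85.6 CPM with the inhibitor and 48.8 CPM with DMSO, and Batf3 at 1.69 CPM with the inhibitor and 0.807 CPM with DMSO. The other members Flt3, Xcr1 and Cd209a had 10 counts or fewer in every library and Siglech was at 0. The part of dendritic cells in the receptor results was not tested. Summed levels of the markers of T cells (highest gene Cd28), mast cells and basophils (Kit) and NK cells stayed under 5 CPM in every library.

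The genes of Mincle and of its partner MCL had the highest levels of the cluster in which they lie. Clec4e (ENSMUSG00000030142, mm10 chromosome 6, 123281789 to 123289870, minus strand) encodes Mincle, a receptor for mycobacterial cord factor and other glycolipids. It was at 680.1, 653.8 and 699.2 CPM with the inhibitor, against 1575, 1667 and 1725 CPM with DMSO. Every inhibitor library was thus below the lowest DMSO library, and the log2 fold change was −1.29 (SE 0.050, adjusted p = 7.50e-07). Clec4e ranked 145th by mean level among tested genes with the inhibitor and 48th with DMSO, and 4.25% of tested genes had a lower log2 fold change.

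Clec4d (ENSMUSG00000030144, chromosome 6, 123262111 to 123275265, plus strand) encodes MCL, also called Dectin-3, which forms complexes with Mincle and helps to bring it to the cell surface. It was at 160.5, 153.4 and 163.9 CPM with the inhibitor, against 330.8, 426.4 and 437.6 CPM with DMSO. DMSO replicate 1 was the lowest of its group and still above all inhibitor libraries. The log2 fold change was −1.32 (SE 0.099, adjusted p = 1.76e-05), and it ranged from −1.45 to −1.21 over the alternatives.

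Clec4d and Clec4e lie tail to tail on opposite strands with 6523 bases between them, and no exon of either overlaps another annotated gene. The ratio of the 2 genes was compared within each library, where scaling does not enter. The log2 ratio of Clec4d to Clec4e counts was −2.08, −2.09 and −2.09 with the inhibitor, against −2.25, −1.97 and −1.98 with DMSO. The inhibitor values lay inside the DMSO range, and the difference of means, −0.02, was smaller than the spread between DMSO libraries (SD 0.161). A two-sided exact permutation test gave p = 1, where 3 libraries against 3 cannot go below p = 0.1. Without DMSO replicate 1 the difference was −0.12, and without DMSO replicate 2 or 3 it was 0.03 or 0.02, so its sign was not fixed. Per base of mRNA, the level of Clec4e was 2.24 ± 0.0082 times that of Clec4d with the inhibitor and 2.21 ± 0.254 times with DMSO (SD, n = 3), taking the longest coding transcript of each. This ratio depends on the length used: over all merged exons Clec4e and Clec4d were at 136.5 and 99.6 CPM per kilobase (RPKM) with the inhibitor and at 333.5 and 249.1 RPKM with DMSO.

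The promoters of the receptor genes that were most abundant or fell most are shown here. These are Clec4d, Clec4e and Clec12a, which were at least 2-fold lower, and Clec7a, which was nearly level. Sequences are those of RefSeq on GRCm38.p6 and run 5′ to 3′ on the strand of the gene, from 250 bases before the annotated start to 50 after it. The RefSeq start of Clec12a lies inside the span that GENCODE gives the gene. Capitals mark GAGGAA and its reverse complement TTCCTC, the core recognised by PU.1, the transcription factor of the macrophage lineage. Each promoter shown, that of Clec7a included, holds this core. Any part of the promoter letters in the differences was not tested.
Clec4e (chr6:123289822-123290121, minus strand): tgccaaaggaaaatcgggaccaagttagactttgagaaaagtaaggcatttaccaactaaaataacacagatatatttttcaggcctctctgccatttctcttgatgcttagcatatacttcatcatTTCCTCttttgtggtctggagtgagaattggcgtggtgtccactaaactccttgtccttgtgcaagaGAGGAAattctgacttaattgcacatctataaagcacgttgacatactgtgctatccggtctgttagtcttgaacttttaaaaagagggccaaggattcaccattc
Clec4d (chr6:123261857-123262156, plus strand): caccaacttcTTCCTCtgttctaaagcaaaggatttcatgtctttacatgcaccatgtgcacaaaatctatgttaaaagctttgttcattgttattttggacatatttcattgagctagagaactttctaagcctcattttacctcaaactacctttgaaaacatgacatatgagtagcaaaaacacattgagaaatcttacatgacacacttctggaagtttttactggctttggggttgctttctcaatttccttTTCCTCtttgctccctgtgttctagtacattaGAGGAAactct
Clec12a (chr6:129349994-129350293, plus strand): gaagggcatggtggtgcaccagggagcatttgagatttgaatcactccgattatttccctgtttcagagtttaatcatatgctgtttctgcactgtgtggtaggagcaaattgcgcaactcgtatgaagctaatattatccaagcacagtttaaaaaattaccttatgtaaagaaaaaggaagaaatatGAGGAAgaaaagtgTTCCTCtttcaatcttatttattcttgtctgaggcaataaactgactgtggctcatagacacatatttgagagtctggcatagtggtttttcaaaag
Clec7a (chr6:129472730-129473029, minus strand): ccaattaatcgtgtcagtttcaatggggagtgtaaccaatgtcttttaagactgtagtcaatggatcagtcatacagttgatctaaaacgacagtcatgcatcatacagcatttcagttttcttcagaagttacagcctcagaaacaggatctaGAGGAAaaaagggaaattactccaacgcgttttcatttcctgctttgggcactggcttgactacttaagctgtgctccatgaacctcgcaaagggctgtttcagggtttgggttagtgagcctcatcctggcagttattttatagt

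The search was run for 9 of the 10 genes, those with a promoter in the table, on both strands. The PU.1 core was present in a promoter of 8 of the 9, all but Clec4a2, against 28.3% of 32851 mouse promoters of the same length. Genes were counted with any of their promoters, and Clec4a3 had the core in 1 of its 2, while the background counts single promoters. As for Clec12a, the RefSeq start of Clec4a2 lies inside the span that GENCODE gives the gene. The C/EBP motif TTGCNNAA, bound by factors induced in stimulated macrophages, was found for Clec4e, 66 bases before its start, and for Clec12a, where the match is its own reverse complement. It was present in 10.8% of all promoters. The NF-κB motif (GGGA, any 4 bases, then CC) was found for Clec4a1 and Mrc1 (20.7% of all promoters), and the AP-1 motif TGANTCA for Clec4a2 and Clec12a (7.81%). No match of one motif overlapped a match of another. Clec4a3, Clec4d, Clec5a and Clec7a held the PU.1 core and none of the other motifs. A match describes letters in the window and is not a measurement of binding.

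Dectin-2 moved the other way from its neighbours. Clec4n (ENSMUSG00000023349, chromosome 6, 123229843 to 123247021, plus strand) encodes Dectin-2, a receptor for fungal mannans that signals through FcRγ, and ends 15089 bases before Clec4d. It was at 6.97, 7.11 and 5.81 CPM with the inhibitor, against 3.54, 3.32 and 3.88 CPM with DMSO. All inhibitor libraries were above all DMSO libraries, and the fitted log2 difference was 0.89 (SE 0.134, adjusted p = 0.000807). The level was low: the counts behind these values were 181, 178 and 140 with the inhibitor, against 64, 77 and 89 with DMSO. The fold change ranged from 0.83 to 1.00 on the log2 scale over the alternatives and passed in each of them. A higher log2 fold change was seen for few genes, since 95.7% of tested genes lay below it.

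The DCIR genes of the same cluster differed less between the groups. Clec4a1 (ENSMUSG00000049037, chromosome 6, 122921848 to 122934619, plus strand), also named Dcir4, was at 17.7, 13.6 and 16.4 CPM with the inhibitor, against 24.5, 21.4 and 24.1 CPM with DMSO. It was lower in every inhibitor library, by 0.55 on the log2 scale (log2 fold change −0.55, SE 0.108, adjusted p = 0.00319). Clec4a3 (Dcir3, ENSMUSG00000043832, chromosome 6, 122952515 to 122969875, plus strand) was at 8.44, 9.91 and 9.13 CPM with the inhibitor, against 10.2, 12.3 and 12.0 CPM with DMSO. The groups were close but did not overlap, and the log2 fold change was −0.33 (SE 0.109), at an adjusted p of 0.0342. This call was lost in 6 of 13 alternatives, those with library totals alone (adjusted p = 0.107), a threshold of 0.01, and without DMSO replicate 2 (0.106), DMSO replicate 3 (0.0918), inhibitor replicate 1 (0.114) or inhibitor replicate 3 (0.0831). Over the 13 the adjusted p ranged from 0.0155 to 0.114.

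Clec4a2 (Dcir1, ENSMUSG00000030148, chromosome 6, 123106428 to 123143999, plus strand), which encodes the inhibitory receptor DCIR with its SHP-1-binding motif, was at 5.70, 6.75 and 6.85 CPM with the inhibitor, against 6.96, 7.46 and 7.28 CPM with DMSO. Its log2 fold change of −0.17 did not pass (SE 0.112, adjusted p = 0.232), and the 95% interval of −0.43 to 0.09 does not show that the groups were alike. Clec4a2 is also the member with the most sequence shared with other genes. Of the 50-base stretches of its transcripts, 6.69% occur in transcripts of other genes, against at most 0.686% for any other member. Clec4a4, Clec4b1 and Sri are among the genes that share them. How reads matching several places were counted is not given in the sources used here, and whether reads of Clec4a2 were shared was not tested.

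The whole cluster from Clec4a1 to Clec4e holds 9 genes in 368 kb. The 3 that are not among the 10 receptors were at or near 0. Clec4b2 had no counts in any library, which allows at most 0.125 CPM with the inhibitor and 0.166 CPM with DMSO, taking 3 counts as the limit. Clec4a4 had 0, 4 and 4 counts with the inhibitor and none with DMSO, and Clec4b1 none with the inhibitor, against 2, 2 and 6 with DMSO. Such limits cover counting error alone, since amplified reads are not independent molecules. Within the cluster, silent or nearly silent genes thus lay between expressed ones, and Clec4n, the gene called higher, stood beside the pair that fell most.

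**Figure D2:**
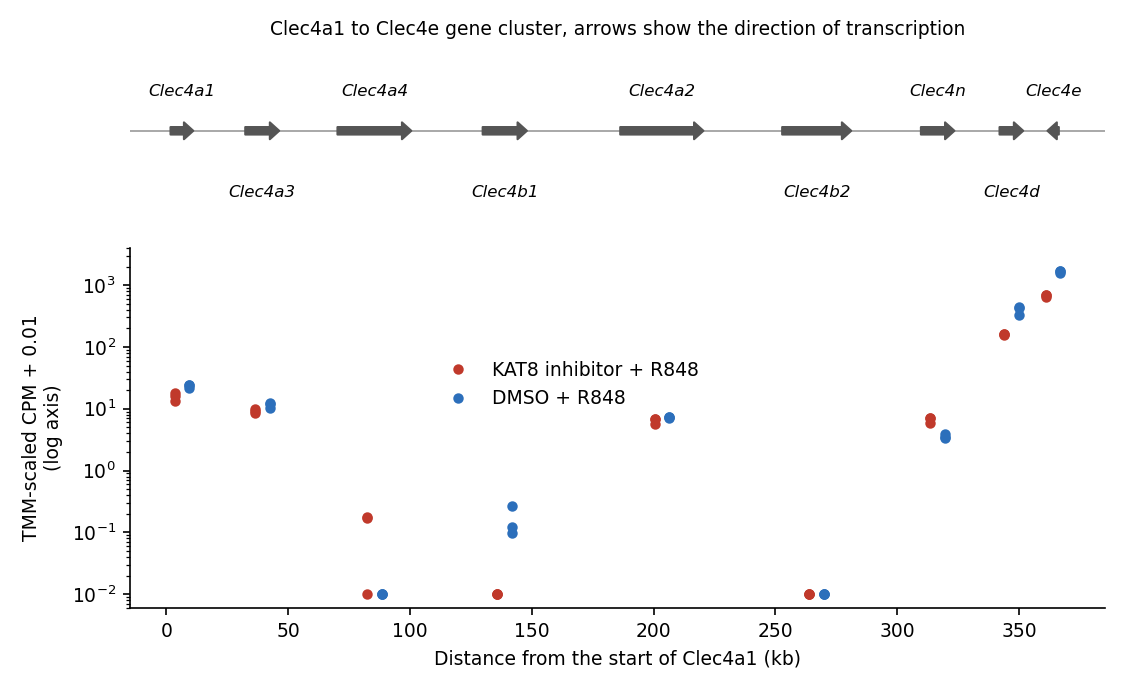
Upper panel, the 9 genes from Clec4a1 to Clec4e drawn to scale by distance in kb from the start of Clec4a1, with arrows for the direction of transcription. Lower panel, TMM-scaled CPM plus 0.01 in each library on a log axis, with KAT8-inhibitor libraries in red left of DMSO libraries in blue. Clec4e and Clec4d, at the right end, were highest and lower with the inhibitor, while Clec4n, to their left, was higher.

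Dectin-1 was the receptor of high level that differed least. Clec7a (ENSMUSG00000079293, chromosome 6, 129461591 to 129472779, minus strand) encodes the receptor for fungal β-glucans, which signals through its own tail. It was at 324.9, 308.9 and 327.8 CPM with the inhibitor, against 333.4, 352.9 and 371.6 CPM with DMSO. The highest inhibitor library and the lowest DMSO library were less than 10 CPM apart. The log2 fold change of −0.14 (SE 0.051, 95% interval −0.25 to −0.02) only just passed, at an adjusted p of 0.0498. The call was lost in 10 of 13 alternatives, and the adjusted p ranged from 0.0121 to 0.633 with the log2 fold change between −0.18 and −0.03. The highest p was that with library totals alone. Leaving out a library gave 0.0870 (without DMSO replicate 2), 0.156 (DMSO replicate 3), 0.0947 (inhibitor replicate 1), 0.164 (inhibitor replicate 2) and 0.0778 (inhibitor replicate 3). Clec7a ranked 429th by mean level with the inhibitor and 423rd with DMSO.

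Clec12a, in the same gene complex of chromosome 6 as Clec7a, was lower to a larger degree. Clec12a (ENSMUSG00000053063, chromosome 6, 129342691 to 129365303, plus strand) encodes an inhibitory receptor for uric acid crystals on myeloid cells. It was at 76.5, 66.4 and 67.4 CPM with the inhibitor, against 138.7, 158.6 and 157.8 CPM with DMSO. The groups were far apart, at a log2 fold change of −1.11 with SE 0.074 (adjusted p = 9.68e-06). Its neighbour Clec12b had no counts in any library, and Clec1a, next to Clec7a, had at most 5.

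Clec5a (ENSMUSG00000029915, chromosome 6, 40574894 to 40585821, minus strand) encodes a DAP12-coupled receptor known for binding dengue virus, and lies far from the other genes on the chromosome. It was at 60.9, 57.3 and 55.1 CPM with the inhibitor, against 98.1, 106.2 and 107.0 CPM with DMSO. The log2 fold change was −0.85 (SE 0.056, adjusted p = 9.69e-06), with no overlap between the groups. Mrc1 (ENSMUSG00000026712, chromosome 2, 14229392 to 14332057, plus strand), the endocytic mannose receptor and a common marker of alternative activation, was at 85.4, 86.4 and 87.6 CPM with the inhibitor, against 161.2, 156.4 and 160.4 CPM with DMSO. Its libraries agreed most closely within groups, and the log2 fold change was −0.88 (SE 0.039, adjusted p = 1.26e-06).

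**Figure D3:**
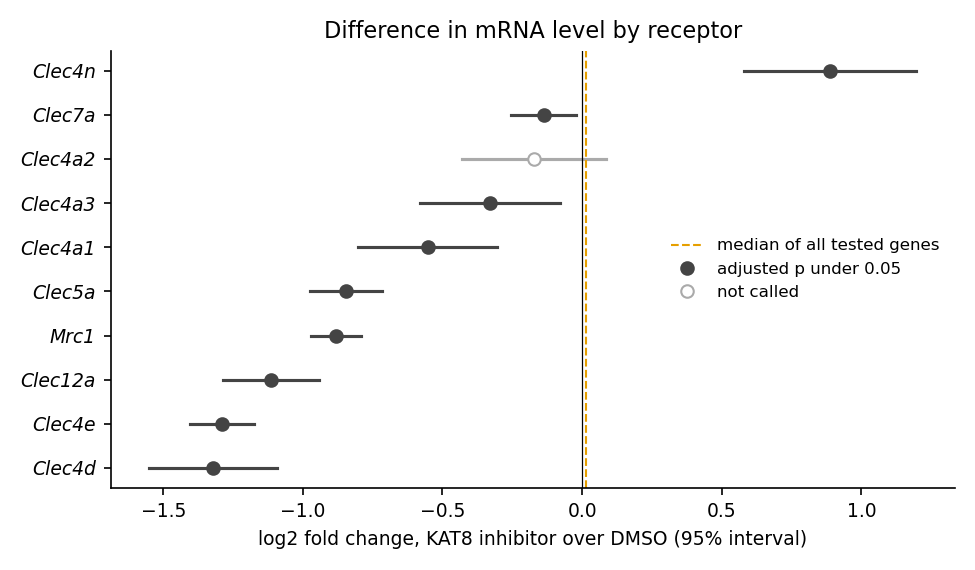
Log2 fold change of the 10 receptor genes, KAT8 inhibitor over DMSO, with 95% intervals from the fit over all genes, ordered from Clec4n at 0.89 to Clec4d at −1.32. Filled points passed an adjusted p under 0.05, the open point (Clec4a2) did not, and the dashed line is the median of all tested genes at 0.01.

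For all 10 genes the 3 values of one group lay apart from the 3 of the other, as they did for 60.6% of all tested genes, and in 9 of the 10 the inhibitor group was lower. Among receptors that pair with FcRγ, Clec4e and Clec4d fell and Clec4n rose. Among inhibitory receptors the log2 fold change was −1.11 for Clec12a, which passed, and −0.17 for Clec4a2, which did not, and the difference between these values was not tested.

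Levels of different genes were compared per base of mRNA, as RPKM over the longest coding GENCODE transcript. Clec4e stood at 269.1 ± 9.06 RPKM with the inhibitor and 657.5 ± 29.9 RPKM with DMSO (SD, n = 3). Clec7a was second with the inhibitor, at 140.8 ± 4.46 RPKM against 120.4 ± 4.03 RPKM for Clec4d in the same libraries. With DMSO the order of these 2 was the other way, since Clec7a stood at 154.9 ± 8.39 RPKM and Clec4d at 301.0 ± 44.4 RPKM. The same change of order was found with the length of all merged exons, where Clec7a and Clec4d were at 121.5 and 99.6 RPKM with the inhibitor and at 133.7 and 249.1 RPKM with DMSO.

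Clec12a followed at 28.0 ± 2.23 RPKM with the inhibitor and 60.6 ± 4.50 RPKM with DMSO. Mrc1 was at 16.1 ± 0.209 and Clec5a at 15.4 ± 0.776 RPKM with the inhibitor, and with DMSO at 29.7 ± 0.474 and 27.7 ± 1.32 RPKM. Mrc1 and Clec5a differed by less than the spread of Clec5a with the inhibitor. Clec12a was above both by the longest coding transcript, but its merged exons are more than double that transcript. By merged exons of each gene, Clec12a stood at 12.7 RPKM with the inhibitor, below Mrc1 (13.57) and Clec5a (15.04). With DMSO it stood at 27.4 RPKM by merged exons, still above Mrc1 and little above Clec5a (27.02). Its place with the inhibitor thus depends on the length used. Clec4a1 and Clec4a3 were lower, at 10.2 ± 1.34 and 7.05 ± 0.566 RPKM with the inhibitor and 15.0 ± 1.10 and 8.84 ± 0.892 RPKM with DMSO. Clec4n and Clec4a2 were lowest, at 5.40 ± 0.581 and 2.59 ± 0.256 RPKM with the inhibitor. With DMSO these 2 could not be told apart, at 2.91 ± 0.230 and 2.92 ± 0.103 RPKM.

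The summed level of the 10 genes was 622.6, 594.0 and 628.4 RPKM with the inhibitor, against 1163, 1289 and 1331 RPKM with DMSO. Every inhibitor library was therefore far below every DMSO library, also when Clec4e was left out of the sum (334.4 to 352.5 RPKM with the inhibitor and 537.2 to 646.2 RPKM with DMSO). Clec4e made up 43.8 ± 0.406% of the sum with the inhibitor and 52.2 ± 1.38% with DMSO. Clec4d made up 19.6 ± 0.121% with the inhibitor and 23.8 ± 1.98% with DMSO. The share of Clec7a was 22.9 ± 0.043% with the inhibitor and 12.3 ± 0.286% with DMSO, and that of Clec4n 0.879 ± 0.114% with the inhibitor and 0.232 ± 0.0195% with DMSO (SD, n = 3). Shares depend on the transcript lengths used and add to the whole, so a larger share of Clec7a accompanied the smaller ones of Clec4d and Clec4e.

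**Figure D4:**
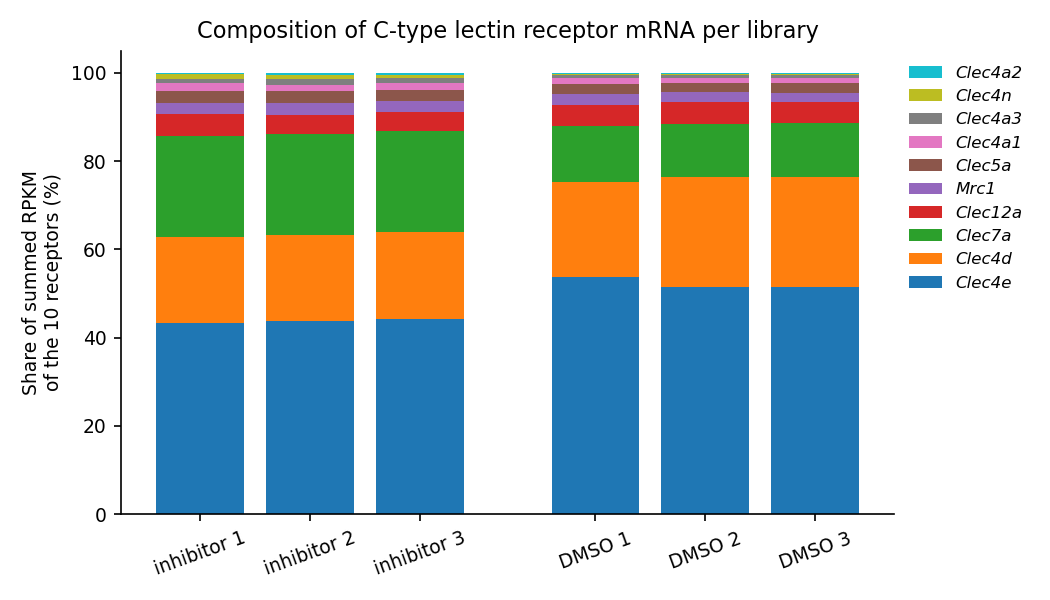
Share of each receptor gene in the summed RPKM of the 10 genes, in percent, for the 3 KAT8-inhibitor libraries and the 3 DMSO libraries. Clec4e is the lowest segment of each bar, with 43.8% on average with the inhibitor and 52.2% with DMSO, and the green segment of Clec7a takes 22.9% with the inhibitor and 12.3% with DMSO.

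Among 30 genes for adaptors and signalling proteins of these receptors, all tested, 7 were higher and 15 lower (24.9% and 26.5% of all tested genes were), with a median log2 fold change of −0.13. The genes of the chains DAP12 and FcRγ fell. Tyrobp, the DAP12 chain of CLEC5A, was at 156.5, 174.0 and 216.6 CPM with the inhibitor, against 324.7, 365.1 and 401.2 CPM with DMSO (log2 fold change −0.996, SE 0.122, adjusted p = 0.000254). Fcer1g, the FcRγ chain of Mincle, MCL and Dectin-2, was at 415.7, 435.9 and 426.2 CPM with the inhibitor, against 543.5, 585.3 and 563.6 CPM with DMSO (−0.41, SE 0.043). Their inhibitor libraries were all below their DMSO libraries. Hcst, another adaptor gene of the list mentioned outside the naming rule, was at a low level. It was at 2.62 CPM with the inhibitor and 6.29 CPM with DMSO (log2 fold change −1.27, SE 0.162, adjusted p = 0.000331).

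The central kinase gene Syk was at 1457 ± 32.4 CPM with the inhibitor and 1556 ± 48.5 CPM with DMSO (SD, n = 3), and its log2 fold change of −0.09 did not pass (adjusted p = 0.0995). Card9, the scaffold that links SYK to NF-κB, was at 26.2 ± 1.65 CPM with the inhibitor and 21.8 ± 2.08 CPM with DMSO and rose by 0.26 on the log2 scale (adjusted p = 0.0340). The phosphatases were unlike each other. Ptpn6, the gene of SHP-1, fell to 117.5 ± 9.86 CPM with the inhibitor, against 304.5 ± 12.7 CPM with DMSO. Inpp5d, which encodes the lipid phosphatase SHIP1, rose to 95.4 ± 4.17 CPM with the inhibitor, against 53.8 ± 4.46 CPM with DMSO. Ptpn11, the gene of SHP-2, mentioned outside the naming rule, was at 228 CPM with the inhibitor and 226.4 CPM with DMSO. Its log2 fold change of 0.01 did not pass (adjusted p = 0.866). Exons of Ptpn6 and Card9 overlap transcripts of the opposite strand, from which unstranded reads could not be told apart.

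Of the other genes that the naming rule took, the kinase genes Fgr, Src and Prkcd fell (log2 fold changes −1.04, −0.76 and −0.52), as did the exchange factor gene Vav1 (−0.46) and the NF-κB subunit gene Relb (−0.46). Prkcd encodes the protein kinase C that phosphorylates CARD9. Traf6, a ubiquitin ligase that acts downstream of CARD9 and of Toll-like receptors, rose by 0.45. With library totals alone 11 of the 30 genes of the list were higher and 12 lower. By that scaling 4888 of all 13815 tested genes were higher and 2842 lower.

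**Figure D5:**
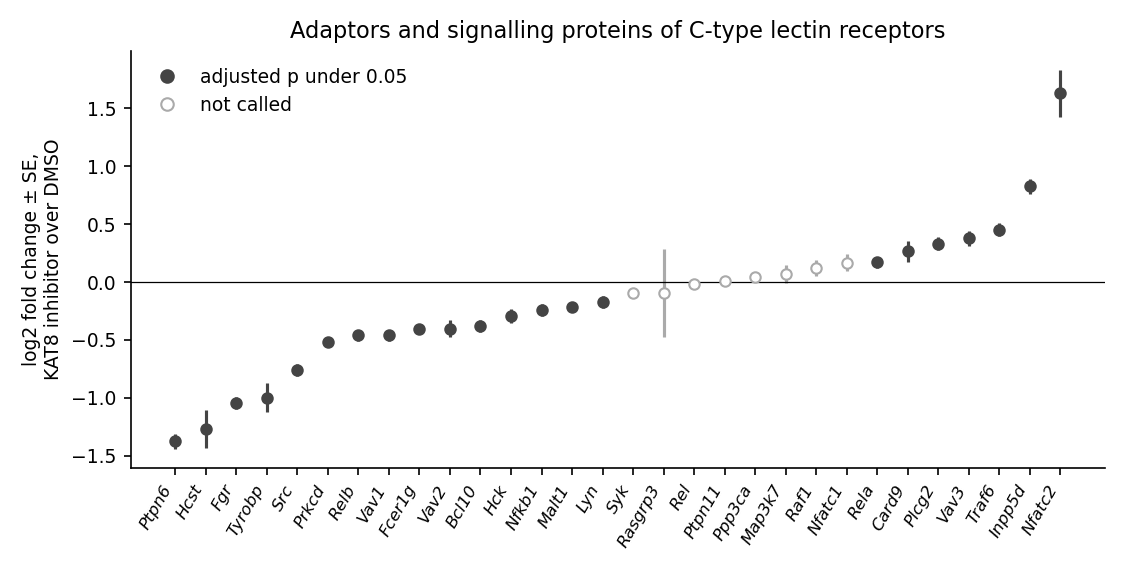
Log2 fold change (KAT8 inhibitor over DMSO) with its SE for 30 genes of adaptors and signalling proteins, ordered from Ptpn6 at −1.37 to Nfatc2 at 1.63. Filled points passed an adjusted p under 0.05 and open points did not, Syk among them.

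Other genes with a C-type lectin domain were read from a list. Of its 62 genes 60 were in the table, 19 had no counts in any library and 19 were tested. Of those tested 3 were higher and 11 lower, beside 24.9% and 26.5% of all tested genes, with a median log2 fold change of −0.76. Ly75, the DEC-205 endocytic receptor and a relative of the mannose receptor, was at 162.0 ± 4.84 CPM with the inhibitor and 315.8 ± 4.40 CPM with DMSO (log2 fold change −0.96), and its exons overlap an antisense transcript. Olr1, which encodes the oxidised LDL receptor LOX-1 and is the next gene after Clec7a, was at 81.7 ± 3.07 CPM with the inhibitor and 145.2 ± 1.98 CPM with DMSO (−0.83). It fell although Clec7a, 12464 bases away, was nearly level.

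The thrombomodulin gene Thbd fell most among the abundant ones, to 21.2 ± 2.83 CPM with the inhibitor, against 107.4 ± 4.53 CPM with DMSO. Clec2d, Colec12, Cd302 and the mannose receptor relative Mrc2 also fell (−0.89, −0.79, −0.52 and −0.23). Layn, which encodes the hyaluronan receptor layilin, rose to 102.1 ± 3.55 CPM with the inhibitor, against 29.3 ± 1.67 CPM with DMSO. The 2 other rises, chosen for mention after their values were seen, were those of Clec10a and Klrg2, both under 2 CPM in each group.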

How the data were processed

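Gene-level data were 6 columns of raw read counts, deposited by the authors without normalization for 34745 Ensembl genes. Build mm10 and the tools HISAT2, edgeR and StringTie 1.3.0 come from the submitters' processing notes. What each tool did, the annotation, the strand setting and the handling of reads with several matches: not given in the sources used here. Samples were grouped by title. Coordinates and exon overlaps came from GENCODE M21 on the same build. Symbols came from a reference list of gene names, or from GENCODE where that list had none. The 401 genes without a symbol were kept. No 2 libraries were copies: the chi-square per degree of freedom within groups was 9.25 to 14.3.

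Differential expression was tested with edgeR 4.0.16 in R 4.3.3 (quasi-likelihood test, TMM scaling, filterByExpr with a minimum count of 10, pretreatment as the only factor), which kept 13815 genes. SE was the size of log2 fold change divided by the root of F. Values of single ratios were compared by an exact permutation test. The code was tested on simulated data.

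The members and lists were chosen with earlier results of these data known. Named genes were all 10 members, Kat8, 4 fixed and the 8 other called signalling genes of smallest p, the 8 most abundant called lectin genes, cluster neighbours and the top gene of each cell type list; a result of a further marker list is not reported here. Alternatives were other scalings, filters, DESeq2 1.42.0, a replicate block, a stricter threshold and leaving out each library.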

Additional observations from a re-analysis of the deposited data

How the results depend on the processing

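Under 13 alternatives Clec4d, Clec4e, Clec4n, Clec5a, Clec12a, Clec4a1 and Mrc1 kept their direction and passed, and Clec4a2 never passed. Between 6 and 8 receptor genes were lower and 1 was higher under each. Without TMM factors (library totals) the all-gene median shifted up by 0.11 on the log2 scale, and 63.2% of calls were then higher (4888 genes, with 2842 lower), against 48.4% (3446 and 3667) with TMM scaling. With library totals alone 11 signalling genes were higher, against 7 with TMM scaling. At an adjusted p under 0.01, 2257 genes were higher, by construction of the threshold. Leaving out each library gave 2851 to 3269 genes higher and a Clec4d to Clec4e difference of −0.12 to 0.03, reversed without DMSO replicate 2 (0.026) or 3 (0.020), and the cause was not tested. Deviations of same-numbered libraries correlated at −0.031, −0.017 and 0.056, and those of differently numbered libraries at −0.036 to 0.051. Such values cannot settle whether replicates were paired, which the labels do not state. With the replicate block 3215 genes were higher and 3510 lower, with 7 receptor genes lower, as Clec7a missed the threshold (adjusted p = 0.0593). Counts were lowest for Clec4n and the DCIR genes, at 64 to 553 a library.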
